A study of Mus musculus with 18 samples.

Results

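Mouse bone marrow cells of the LSK gate were compared with and without doxycycline (Dox), which in these cells switches on the 4 Yamanaka reprogramming factors. LSK cells lack lineage markers and carry Kit and Sca-1, the gate that holds blood stem cells and early multipotent progenitors. All 6 arrays used here came from sorted cells of 4F mice, which carry Dox-inducible Oct4, Sox2, Klf4 and c-Myc, so the control cells held the same transgenes. The LSK Dox group had 3 arrays of cells given Dox in vitro for 24 h, and the LSK Control group had 3 arrays. These arrays were chosen by their titles, 6 of the 18 in the series, and the other 12 were not used here. By their titles the replicates of each group are biological repeats, but whether they came from separate mice or cultures is not described. The p-values here therefore rest on a spread between arrays that could be technical. The labels do not say whether control cells were also kept in culture, and no group of cells without the transgenes was used, so the effects of the factors, of Dox itself and of time in culture cannot be told apart. The sources used here give neither the promoter that drives the transgenes, nor the age of the mice, nor how many were pooled.

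The 4 factors are transcription factors that together can return a differentiated cell to a pluripotent state over days to weeks. Klf4 belongs to the Krüppel-like family, zinc-finger proteins that read CACCC and GC-rich sites, and it is also a monocyte transcription factor in blood. c-Myc drives ribosome production and growth. In LSK cells, granule genes such as Mpo and Elane mark priming toward the granulocyte and monocyte lineage, while Procr, Tek and Fgd5 mark the stem cell end of the gate.

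Values are log2 expression, so a difference of 1 is a 2-fold change, and every difference below is Dox minus control with its standard error from limma's fit over 3 arrays a group. Of 22180 genes measured, 14886 lay above the 40th percentile of an array on at least 3 of the 6 arrays and were tested. At a Benjamini-Hochberg adjusted p of 0.05, limma called 2927 genes (19.7% of those tested), of which 1425 were higher with Dox (9.57%) and 1502 were lower (10.1%). The lower calls came to 907, 951 and 976 without control replicate 3, Dox replicate 2 and Dox replicate 3, respectively. A total of 1691 genes (11.4%) were called with all 6 arrays and also in each fit that left out 1 array, 1021 of them higher (6.86%) and 670 lower (4.5%). The direction of the large changes was uneven. Called changes of at least 2-fold numbered 402 higher (2.7%) and 69 lower (0.464%), and 401 and 68 of these were called whichever array was left out. At 4-fold or more there were 108 higher and 6 lower, and at 8-fold or more 43 higher and 0 lower. The shares of 9.57% higher and 10.1% lower are the background for every count of list members below. The Dox and control arrays did not overlap for 5717 genes (38.4%). The median change over all genes was -0.05. Correlation between arrays was 0.9869 to 0.9885 within a group and 0.9765 to 0.9791 between groups. With 3 arrays against 3, an exact permutation test of a single value cannot go below 0.1, so the calls rest on the fit across all genes.

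**Figure D1:**
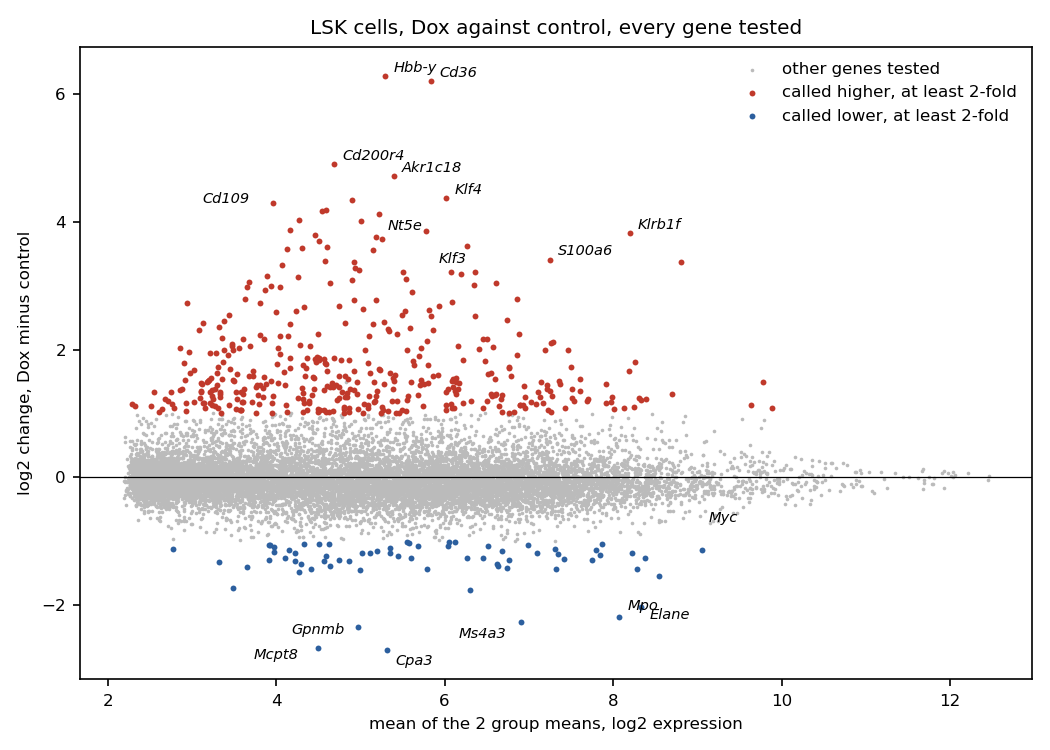
Log2 change with Dox (vertical axis, log2 units) against the mean of both groups' log2 expression (horizontal axis) for the 14886 genes tested, 1 point a gene. Red points are the 402 genes called higher by at least 2-fold, blue points the 69 called lower by at least 2-fold, and the red points reach 6.29 while the blue points reach -2.71.

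Of the 4 factors, Klf4 was the 1 whose probe set rose. It read 3.95, 3.72 and 3.82 on the control arrays and 8.30, 8.15 and 8.18 on the Dox arrays, a change of 4.38 (SE 0.10, limma adjusted p = 4.02e-08). The 3 Dox arrays lay close together and far above every control array, at 20.8-fold. Pou5f1, which encodes Oct4, read 3.07, 3.06 and 2.81 in control and 2.78, 3.44 and 3.18 with Dox, and the groups overlapped (change 0.15, SE 0.16, limma adjusted p = 0.57). Sox2 read 2.7, 2.44 and 2.38 in control and 2.48, 2.7 and 3.23 with Dox, again with overlap (change 0.30, SE 0.18, limma adjusted p = 0.304). Its highest value was on 1 Dox array. Myc went the other way, from 9.19, 9.41 and 9.41 to 8.66, 8.66 and 8.89, a change of -0.60 (SE 0.11, limma adjusted p = 0.00461). Every Dox array was below every control array for Myc. The sources used here do not give which parts of the transgene and of the native transcript these probe sets cover, so a probe set that did not rise says nothing on whether its transgene was expressed. For the same reason the rise of the Klf4 probe set could come from the transgene, the native gene or both.

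Klf4 was accompanied by much of its own family. All 17 Krüppel-like factors measured were tested: 9 rose and 0 fell, against 9.57% higher among all genes, and their median change was 0.68. The 9 include Klf4, whose transgene Dox switches on, so its rise may not be a response of the native gene. The count was 9 to 10 with 1 array left out, and no member was lower at an unadjusted limma p of 0.05 either. After Klf4, the largest rises were in Klf3, Klf12 and Klf8, which are known as repressors that recruit the corepressor CtBP. Klf3 read 4.52, 4.41 and 4.47 in control and 7.74, 7.79 and 7.53 with Dox (change 3.22, SE 0.10, limma adjusted p = 1.5e-07). Klf12 read 2.49, 2.48 and 2.36 in control and 5.16, 5.60 and 5.56 with Dox (change 3.0, SE 0.13, limma adjusted p = 9.5e-07). Both were separated by more than 2 log2 units between the nearest arrays of the groups. Klf8 was more scattered, at 3.55, 3.64 and 4.05 against 5.35, 6.18 and 5.34 (change 1.87, SE 0.23, limma adjusted p = 0.000671), with its spread coming mostly from Dox replicate 2. Klf6 rose by 1.84, Klf10, known for its induction by TGF-beta, by 1.38, and Klf9 by 1.09. Smaller rises were called in Klf7 (0.81) and Klf13 (0.68). Klf5, which can stand in for Klf4 in reprogramming, changed by 0.40 and was not called, nor were Klf2 (0.19), a factor of lymphocytes and endothelium, and Klf1 (-0.16), the erythroid factor.

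**Figure D2:**
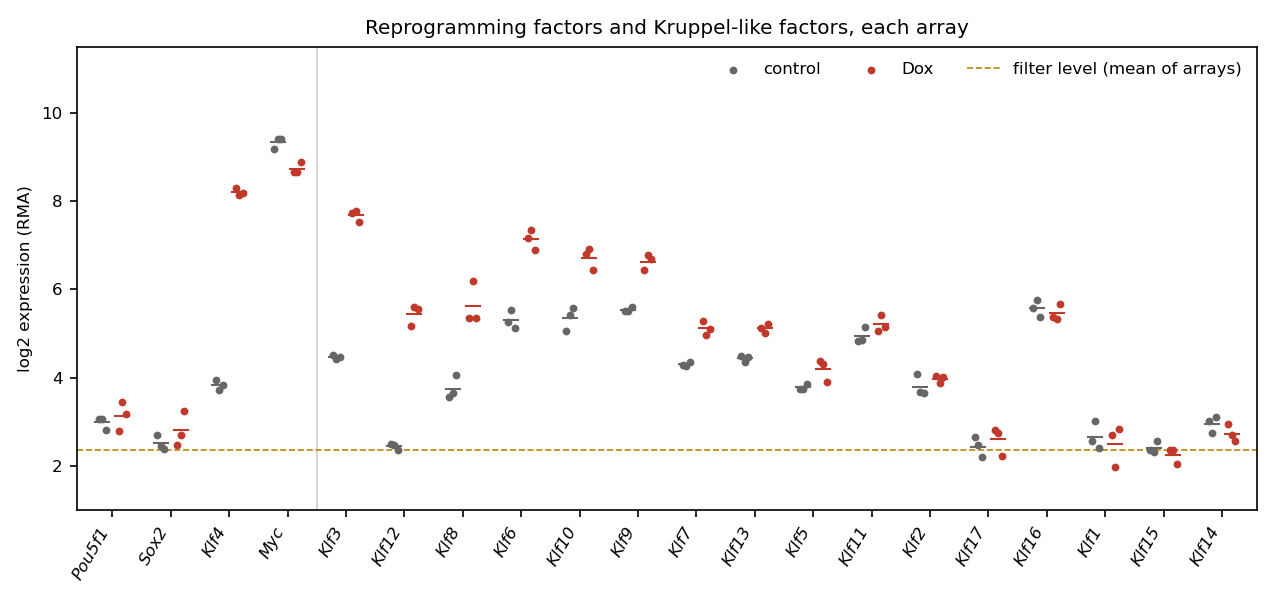
Log2 expression on each array (vertical axis) of the 4 reprogramming factors, left of the line, and of the other 16 Krüppel-like factors; grey points are the 3 control arrays, red points the 3 Dox arrays, short bars the group means, and the dashed line the mean 40th percentile of the arrays used as the filter. Klf4, Klf3 and Klf12 show the widest gaps, while Pou5f1 and Sox2 overlap near the filter level.

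The largest rise of all was in Hbb-y, the embryonic beta-type globin. Hbb-y lay at 2.11, 2.40 and 1.92 in control, with a mean below the filter level, and at 8.40, 8.16 and 8.75 with Dox. Since the control level is only a bound, the rise was at least 6.07 (fitted change 6.29, SE 0.17, limma adjusted p = 8.21e-08). The globin stood apart from the red cell program: of 19 erythroid and globin genes tested, 4 rose (9.57% of all genes did) and 3 fell. The other rises were Aqp1, a water channel (1.65), Car2, a carbonic anhydrase (1.14) and Cd24a (0.73). The erythroid transcription factors Klf1 (-0.16) and Gata1 (-0.11), the erythropoietin receptor Epor (-0.11) and the red cell anion exchanger Slc4a1 (-0.21) were not called. The other embryonic globins Hbb-bh1 and Hba-x were measured but stayed below the filter. Of the 3 that fell, Zfpm1 (-0.46), the Gata1 cofactor, was called whichever array was left out. The lower count was 1 to 3 with 1 array left out, over 1.5 times fewer without control replicate 3 or Dox replicate 1 or 3.

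The start regions of Hbb-y, Cd36 and Klf3 are shown because these genes rose beside Klf4 and Krüppel-like proteins are known to read CACCC boxes, known from globin promoters. Hbb-y and Cd36 had the largest rises of all, and Klf3, which is not among the 20 largest, was picked with its matches known. Each line is the 125 bases before the RefSeq start, read 5′ to 3′ on the gene's strand (GRCm38.p6), with the letters CCACCC, or their reverse complement GGGTGG, in capitals. Hbb-y lies at chr7:103853208-103853332 on the minus strand, Cd36 at chr5:17835897-17836021 on the minus strand and Klf3 at chr5:64803396-64803520 on the plus strand.
Hbb-y: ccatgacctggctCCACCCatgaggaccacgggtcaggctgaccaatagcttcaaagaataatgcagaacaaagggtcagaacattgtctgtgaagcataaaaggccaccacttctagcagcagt
Cd36: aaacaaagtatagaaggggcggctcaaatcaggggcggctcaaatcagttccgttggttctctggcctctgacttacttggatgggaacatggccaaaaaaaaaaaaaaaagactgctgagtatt
Klf3: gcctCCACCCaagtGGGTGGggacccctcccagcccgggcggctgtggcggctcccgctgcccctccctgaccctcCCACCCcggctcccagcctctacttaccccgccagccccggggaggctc
The Hbb-y stretch held 1 match, the Klf3 stretch 3 and the Cd36 stretch 0. Cd36 and Akr1c18, which had the fourth largest rise, held 0 matches to CCACCC in the whole 250 bases searched. The GC-rich letters GGGCGG, not marked here, do occur in the Cd36 stretch. Their reverse complement occurs in the 125 bases before the start of Akr1c18. In the 250 bases before the start, searched on both strands, 42.7% of the windows of genes called higher by at least 2-fold held CCACCC, 36.6% of those called higher by at least 8-fold, 24.4% of those called lower by at least 2-fold and 33.4% of all genes tested. The GC-rich letters GGGCGG were in 52.8% and 36.6% of the windows of genes called higher by at least 2-fold and 8-fold, respectively. Neither share was above that of all genes tested. CCACCC was not the only motif more frequent in the higher genes. The octamer core letters TTTGCAT were in 5.87% and 9.76% of the same windows, against 3.26% for all genes tested. The 9.76% is 4 of 41 windows. Genes with several starts gave several windows, and CCACCC was chosen with the changes known. A match is a description of letters, not a bound site.

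Cd36, a scavenger receptor for fatty acids and oxidised lipoproteins, came next. It read 2.68, 2.83 and 2.7 in control and 8.94, 9.06 and 8.81 with Dox, a change of 6.20 (SE 0.10, limma adjusted p = 1.08e-08). The groups were tight and 73.7-fold apart. Cd200r4, of the CD200 receptor family, read 2.08, 2.68 and 1.94 in control and 7.13, 7.16 and 7.12 with Dox, a rise of at least 4.68 because its control mean lay below the filter level (SE 0.17, limma adjusted p = 3.63e-07). Akr1c18, which inactivates progesterone, read 2.61, 3.33 and 3.16 in control and 7.71, 7.79 and 7.78 with Dox (change 4.72, SE 0.17, limma adjusted p = 3.63e-07). For these genes the control arrays were near the filter level and the Dox arrays well inside the measured range.

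Surface and secreted proteins were among the other large rises. Npnt, an extracellular integrin ligand, rose by 4.34, and Ccdc80, a secreted matrix protein, by 4.18. Cd109, a membrane protein that binds TGF-beta, read 1.87, 1.84 and 1.76 in control and 6.15, 6.11 and 6.07 with Dox, a rise of at least 3.76 (SE 0.08, limma adjusted p = 2.22e-08). Nt5e, the surface enzyme CD73 that makes adenosine from AMP, read 3.29, 2.86 and 3.34 in control and 7.36, 7.22 and 7.30 with Dox (change 4.13, SE 0.13, limma adjusted p = 1.98e-07). No array of either group came near the other group in these genes. Cd55, which protects cells from complement, rose by 3.86 and Thy1, a surface glycoprotein of T cells and other lineages, by 3.62. Klrb1f, a lectin-like receptor of the natural killer gene complex, differed from the rest in being well measured in control, at 6.35, 6.25 and 6.26, before reaching 10.17, 10.15 and 10 (change 3.82, SE 0.09, limma adjusted p = 4.04e-08). Also among the 20 largest rises were Crybg1 (4.17), the chitinase-like gene Chil5 (at least 3.91), the carboxylesterase gene Ces2g (4.01), the cytochrome P450 gene Cyp4f39 (at least 3.76), the microtubule regulators Stmn2 (3.79) and Tppp3 (3.73), Ms4a6d (3.76) and Pcolce2 (3.70), which aids procollagen processing. A total of 88 genes passed the filter through the Dox arrays alone, so a rise was built into their selection.

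**Figure D3:**
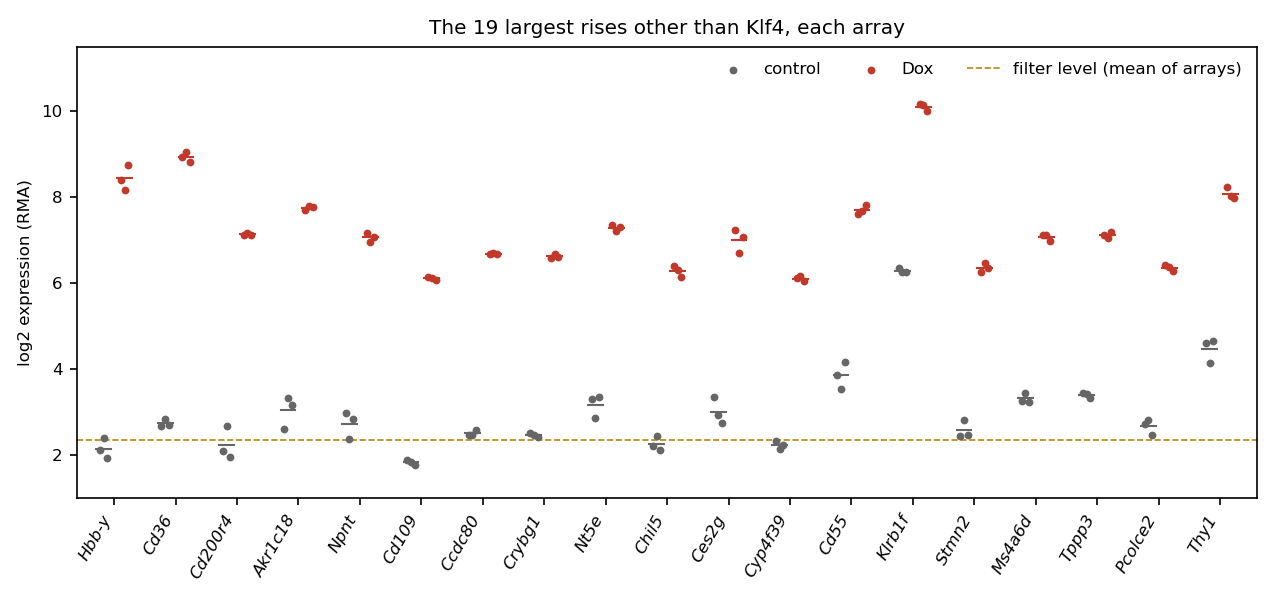
Log2 expression on each array (vertical axis) of the 19 genes with the largest rises other than Klf4, ordered by size of change from Hbb-y to Thy1. Grey points are control arrays, red points Dox arrays, bars the group means and the dashed line the filter level; most control points lie at or near the filter level, whereas Klrb1f starts between 6.25 and 6.35.

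Among the deepest falls were granule genes of early neutrophils, basophils and mast cells. Cpa3, the mast cell carboxypeptidase, read 6.60, 6.71 and 6.70 in control and 3.91, 4.12 and 3.85 with Dox (change -2.71, SE 0.10, limma adjusted p = 3.96e-07). Mcpt8, a basophil protease, read 6.08, 5.72 and 5.72 in control and 3.19, 3.16 and 3.12 with Dox (change -2.68, SE 0.11, limma adjusted p = 9.58e-07). Both fell more than 6-fold with no overlap. Of 11 mast cell and basophil genes tested, 4 fell and 1 rose, the other falls being Ms4a2 (-0.91), a chain of the IgE receptor, and Ccl3 (-0.52), which was lost without control replicate 1 or Dox replicate 2 or 3. The gene that rose was Cd200r3 (at least 1.51). Fcer1a stayed below the filter, and Hdc, the histamine-forming enzyme, changed by -0.30 and was not called.

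Primary granule genes, made at the promyelocyte stage, fell in most members tested. Of 11 tested, 6 fell, against 10.1% of all genes, with a list median of -1.22 beside -0.05 for all genes. Mpo, myeloperoxidase, read 8.99, 9.0 and 9.49 in control and 7.03, 7.26 and 6.65 with Dox (change -2.18, SE 0.18, limma adjusted p = 6.57e-05). Elane, neutrophil elastase, read 9.40, 9.26 and 9.40 in control and 7.37, 7.37 and 7.24 with Dox (change -2.03, SE 0.09, limma adjusted p = 1.14e-06). Ms4a3, a membrane protein of granulocyte and monocyte progenitors, read 8.06, 8.12 and 7.95 in control and 5.86, 5.56 and 5.91 with Dox (change -2.26, SE 0.11, limma adjusted p = 2.97e-06). In all of these genes every Dox array was more than 1.5 log2 units below every control array. Prtn3, proteinase 3, fell by 1.55, Ctsg, cathepsin G, by 1.29 and the lysozyme gene Lyz2 by 1.22. Ctsc, the protease that activates these granule proteases, rose instead, by 0.58 (SE 0.09, limma adjusted p = 0.00199). Srgn, the granule proteoglycan, was called higher at 0.27 with all arrays and in no fit that left 1 out. The 4 neutrophil precursor markers were averaged within each array, and this mean ran from 8.98 to 9.20 over the control arrays. Over the Dox arrays it ran from 7.18 to 7.36. The same mean of the 5 mast cell and basophil markers ran from 4.15 to 4.31 in control and from 2.73 to 2.91 with Dox. In these bulk samples fewer cells of a kind and less RNA per cell cannot be told apart, and the part of cell makeup in the result was not tested.

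The start regions of Elane, Prtn3 and Mpo are shown because these primary granule genes fell together and purine-rich ETS sites, read by the myeloid factor PU.1, are known in myeloid promoters. The 125 bases before each RefSeq start are given as above, with GAGGAA in capitals. Elane lies at chr10:79886187-79886311, Prtn3 at chr10:79879542-79879666 and Mpo at chr11:87793659-87793783, all on the plus strand.
Elane: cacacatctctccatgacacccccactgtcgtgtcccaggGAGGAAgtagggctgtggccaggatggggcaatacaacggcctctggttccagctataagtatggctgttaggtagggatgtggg
Prtn3: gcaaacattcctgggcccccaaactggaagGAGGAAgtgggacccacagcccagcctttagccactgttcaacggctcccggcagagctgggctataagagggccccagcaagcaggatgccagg
Mpo: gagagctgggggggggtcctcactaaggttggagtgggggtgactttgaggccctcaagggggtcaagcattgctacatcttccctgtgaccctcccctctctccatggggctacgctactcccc
The Elane and Prtn3 stretches held 1 match each and the Mpo stretch 0, as did that of Ctsg. In the whole 250 bases Mpo held 2 matches and Ctsg 1, both farther from the start. In the 250 bases before the start, on either strand, GAGGAA was found in 39.7% of the windows of genes called lower by at least 2-fold, in 24.9% of those called higher by at least 2-fold and in 22.8% of all genes tested. GAGGAA was not the only motif more frequent in the lower genes. The SOX-type letters ACAANG were in 42.3%, 29.3% and 30.1% of the same windows, respectively. In the windows of the primary granule list, GAGGAA and CCACCC were equally frequent, at 45.5% each. Spi1, which encodes PU.1, changed by 0.16 and was not called.

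Later neutrophil genes also fell, though less deeply. Of 18 secondary granule and late neutrophil genes tested, 10 fell and 3 rose, with a median of -0.51, beside 10.1% lower and 9.57% higher among all genes. Camp, the cathelicidin gene, read 4.82, 4.83 and 4.98 in control and 3.45, 3.56 and 3.69 with Dox (change -1.31, SE 0.10, limma adjusted p = 3.46e-05). Chil3 fell by 1.44, Cd177, a neutrophil surface glycoprotein, by 1.26, Ltf, lactoferrin, by 1.24, Lcn2, lipocalin 2, by 0.85 and Ngp by 0.65. Ltf was uneven in control, at 4.70, 5.15 and 5.79. S100a8 and S100a9, which form calprotectin, fell by 0.52 and 0.33. The genes that rose were Padi4, which citrullinates histones (1.37), Pglyrp1, a peptidoglycan-binding protein (1.26), and Itgam, the CD11b integrin chain (0.41). Itgam and S100a9 were each called in 1 of the 6 fits that left out an array, and Ngp was lost without control replicate 3. The granule metalloproteases Mmp8 (-0.25) and Mmp9 (-0.31) were not called.

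Among monocyte and macrophage genes, 10 of 23 tested fell and 3 rose, with a median of -0.38, beside 10.1% lower and 9.57% higher among all genes. The rises are near that background. The lower count was 5 without Dox replicate 3. Gpnmb, a macrophage glycoprotein, read 6.08, 6.31 and 6.05 in control and 3.72, 4.07 and 3.61 with Dox (change -2.35, SE 0.13, limma adjusted p = 6.72e-06). The beta-glucan receptor Clec7a read 5.09, 4.80 and 5.15 in control and 3.43, 3.45 and 3.71 with Dox (change -1.49, SE 0.12, limma adjusted p = 6.24e-05). Both groups were far apart in these genes. Clec4n, another lectin receptor, fell by 1.41 but was not called without Dox replicate 3 (limma adjusted p = 0.0521). Csf1r, the receptor for macrophage colony-stimulating factor, fell by 0.89, while Cd14 (-0.07), Adgre1 (0.25) and C1qa (-0.21) were not called. Rises were called in Ms4a6c (2.60), in Ccr2, the chemokine receptor of inflammatory monocytes (0.49), and in Cd68 (0.40), called in 2 of the 6 fits without an array. Among 13 dendritic cell and antigen presentation genes, the MHC class II genes H2-Aa (-1.27), H2-DMa (-0.55) and H2-Ab1 (-0.50) fell, while the costimulatory gene Cd86 rose by 2.05. Cd40, the other gene called higher (0.72), was lost without control replicate 1 or 2 or Dox replicate 1 or 3.

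The markers of the gate itself moved in both directions. All 10 LSK and stem cell markers tested were called, 5 higher and 5 lower, against 9.57% and 10.1% of all genes. Procr, the protein C receptor that marks the most primitive stem cells, read 3.61, 3.91 and 3.86 in control and 6.53, 6.40 and 6.77 with Dox (change 2.78, SE 0.12, limma adjusted p = 1.37e-06). Fgd5 read 3.01, 3.07 and 3.12 in control and 4.84, 4.73 and 4.35 with Dox (change 1.57, SE 0.13, limma adjusted p = 6e-05). Tek, the angiopoietin receptor, rose by 1.34 and Esam, an adhesion molecule, by 0.71. These 4 stem cell markers rose, yet Cd48, a marker of the more differentiated LSK cells, rose too, by 0.64. Kit, which defines the gate, read 7.66, 7.76 and 7.72 in control and 6.89, 7.02 and 6.96 with Dox (change -0.76, SE 0.08, limma adjusted p = 0.000361). Flt3 (-0.87) and Cd27 (-0.85), receptors of multipotent progenitors, and Ctnnal1 (-0.56), a stem cell reporter gene, fell. Cd34 fell by only 0.27 and was not called in any fit that left out 1 array. No probe set of its own was found for Ly6a, which encodes Sca-1, so Sca-1 was not checked.

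**Figure D4:**
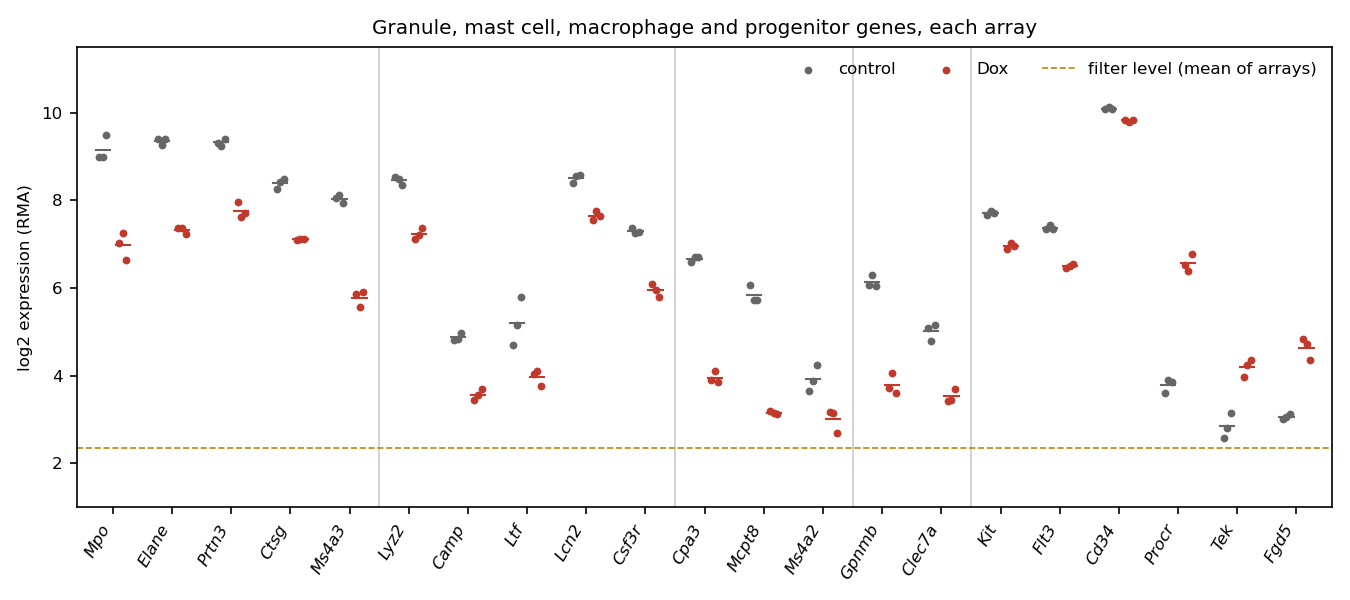
Log2 expression on each array (vertical axis) of primary granule genes, later neutrophil genes with Csf3r, mast cell and basophil genes, macrophage genes, and LSK markers, in that order between the vertical lines. Grey points are control arrays, red points Dox arrays and bars the group means; the granule genes lie lower with Dox on every array, while Procr, Tek and Fgd5 lie higher.

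Of 21 stem cell transcription factors tested, 2 rose and 4 fell, with a median of 0.02. The 2 rises are near the 9.57% of all genes called higher, and 10.1% of all genes were called lower. The genes that rose were Mecom (0.95), needed for stem cell maintenance, and Meis1 (0.73), a cofactor of Hox proteins. A further probe set of Mecom gave -0.02. Gfi1b, a repressor of the megakaryocyte and erythroid lineages, read 7.58, 7.64 and 7.87 in control and 6.59, 6.60 and 6.35 with Dox (change -1.18, SE 0.11, limma adjusted p = 0.000147), with no overlap. Etv6 fell by 0.69. The other falls were Erg (-0.42) and Runx1 (-0.40), and the lower count was 2 to 4 with 1 array left out, falling by over 1.5 times without control replicate 3 or Dox replicate 3. Hoxa9 (0.28), Gata2 (-0.15), Tal1 (0.05) and Hlf (0.32) were not called. Among 17 myeloid transcription factors, 5 rose, Klf4 among them, and 4 fell. Cebpa, needed for the step to granulocyte-monocyte progenitors, fell by 0.79 (SE 0.11, limma adjusted p = 0.00111), Gfi1, the granulocytic repressor, by 0.58 and Irf8, the monocyte and dendritic factor, by 0.59. Beside Klf4, the nuclear receptor Nr4a1 (2.40) and the HLH inhibitor Id3 (2.09) rose most.

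Of 16 receptors for blood growth factors tested, 6 fell and 2 rose, beside 10.1% lower and 9.57% higher among all genes, and 6 fell whichever array was left out. Csf3r, the receptor for granulocyte colony-stimulating factor, read 7.38, 7.25 and 7.29 in control and 6.10, 5.96 and 5.80 with Dox (change -1.35, SE 0.10, limma adjusted p = 3.24e-05). Il1r1 fell by 1.08 and Csf2rb2, the IL-3 receptor beta chain, by 0.93, beside Csf1r, Flt3 and Kit. Il18r1, the IL-18 receptor, rose by 2.60 and Il6ra by 1.19. Epor, Csf2ra (-0.10) and Il6st (0.02), the signal chain of the IL-6 family, were not called.

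Other lineages gave mixed lists. Of 18 megakaryocyte and platelet genes tested, 7 rose and 4 fell. Ppbp, a platelet chemokine, read 2.60, 2.94 and 2.86 in control and 6.24, 6.34 and 6.66 with Dox (change 3.61, SE 0.14, limma adjusted p = 5.45e-07). Selp, P-selectin, rose by 2.55 and the tetraspanin gene Cd9 by 1.18, whereas the integrin chains Itga2b (-0.78) and Itgb3 (-0.67), which form the fibrinogen receptor, fell. Itga2b was lost without Dox replicate 2. Of 5 eosinophil genes, Ccr3, the eotaxin receptor, rose by at least 0.51. The granule genes Prg2 (-0.82) and Epx (-0.72) were called lower with all arrays, but with 1 array left out the lower count ran from 0 to 3, and each was called in 1 of those fits. Of 8 B lymphoid genes, Igll1, of the surrogate light chain, fell by at least 0.71, and Dntt (-0.53), which adds bases at V(D)J joins, fell but was lost without control replicate 1 or 3. Of 10 T and NK cell genes, Klrb1f rose, Gata3 rose by 0.46 except without control replicate 3, and Gzmb, granzyme B, fell by 1.15. Of 6 T and NK defining markers, Cd3g, Cd8a and Ncr1 were below the filter, and the 3 that were tested were not called.

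Endothelial genes were mostly uncalled, with 3 of 18 higher: Pecam1 (1.2), Eng (0.67), a TGF-beta coreceptor, and Ramp2 (0.46), which was lost without control replicate 3 or Dox replicate 1 or 2. Egfl7 (-0.35) and Cldn5 (-0.31) were called lower, a share near the 10.1% of all genes. With 1 of the 6 arrays left out, 0 to 1 of this list were lower. The endothelial factor Sox17 (-0.04) and the cadherin Cdh5 (-0.11) were not called. Of 8 stromal genes, Dcn, the matrix proteoglycan decorin, rose by at least 2.0, while Cxcl12 (0.09) and Col6a1 (-0.25) were not called and Pdgfra and Lepr were below the filter.

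Genes tied to the cell shape and identity changes of reprogramming were called in part. Of 15 pluripotency genes tested out of 24 measured, 1 rose and 0 fell, no more than the 9.57% higher and 10.1% lower among all genes. The gene that rose was L1td1, an RNA-binding protein gene of embryonic stem cells. It read 2.37, 2.30 and 2.29 in control and 4.17, 3.89 and 4.71 with Dox, a rise of at least 1.90 (SE 0.18, limma adjusted p = 0.000134). Nanog read 2.72, 2.57 and 2.50 in control and 2.71, 2.40 and 2.58 with Dox, with overlap and a change of -0.04. Lin28a (0.41), Sall4 (0.01) and Esrrb (0.04) were not called either. Of 12 epithelial genes, 5 rose: Perp, a desmosome-linked p53 target (2.77), Dsp, desmoplakin (at least 2.1), Cdh1, E-cadherin (0.65), Krt8 (0.51), lost in all but 1 of the fits without an array, and Ocln, occludin (0.39). The 1 epithelial gene called lower, Cldn4 (-0.38), was called in no fit that left out an array.

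Of 18 mesenchymal and matrix genes, 7 rose, also in every fit without 1 array. S100a6, a calcium-binding protein, read 5.81, 5.32 and 5.51 in control and 8.86, 8.95 and 9.05 with Dox (change 3.41, SE 0.13, limma adjusted p = 6.06e-07). S100a4 rose by 2.16, Fn1, fibronectin, by 1.93, Sparc by 1.73, Timp1, a metalloprotease inhibitor, by at least 1.45, Lgals1, galectin 1, by 1.16 and Vim, vimentin, by 1.08. The collagen genes Col1a1 (-0.08) and Col1a2 (-0.08) and the transition factors Snai1 (-0.18), Twist1 (0.05) and Zeb1 (-0.01) were not called. Tgfbi fell by 0.50 but was lost without control replicate 1 or 3. Leukocyte integrins and adhesion genes gave 9 rises and 3 falls among 20 tested. Itga2, the collagen receptor chain, read 2.97, 2.84 and 2.84 in control and 6.47, 6.23 and 6.11 with Dox (change 3.39, SE 0.11, limma adjusted p = 2.14e-07). Itgb7, which pairs with alpha 4 in gut homing, rose by 2.62 and Itgb2, the common chain of the leukocyte integrins, by 1.99. The falls were Itgb3, Icam1 (-0.45) and Itga6 (-0.31), and their number was 1 to 3 with 1 array left out, lower by over 1.5 times without control replicate 2 or 3 or Dox replicate 2 or 3.

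Signalling targets were called in small sets. In the Notch pathway 5 of 13 genes rose and 0 fell. Hes1, a Notch target repressor, read 3.42, 3.01 and 2.93 in control and 4.77, 5.03 and 4.90 with Dox (change 1.78, SE 0.14, limma adjusted p = 4.2e-05). The ligand genes Jag1 (at least 1.19) and Jag2 (0.61) and the receptor genes Notch4 (0.68) and Notch2 (0.40) rose with it, whereas the targets Hey1 (0.02), Nrarp (-0.03) and Dtx1 (0.01) were not called. Notch2 was lost without control replicate 2 or Dox replicate 1 or 2. Of 16 TGF-beta and BMP genes, 5 rose: Id3, the SMAD corepressors Skil (0.92) and Ski (0.57), the receptor Bmpr2 (0.61) and the feedback inhibitor Smad7 (0.57). Tgfb1 itself fell by 0.50, and the lower count of 3 was 1 to 2 with 1 array left out, lowest without control replicate 1 or 3. Of 12 Wnt genes, the DNA-binding partners of beta-catenin Tcf7l2 (1.67) and Lef1 (1.44) rose. Ccnd1 (-1.43) and Sox4 (-0.68) fell, and Axin2 (0.13), the usual readout of the pathway, was not called.

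Of 19 immediate early genes limma called 6 higher and 0 lower, with 2 lower at an unadjusted p of 0.05 and 0 lower with the trend and robust options. Nr4a1 read 3.88, 4.09 and 3.86 in control and 6.39, 6.29 and 6.36 with Dox (change 2.40, SE 0.09, limma adjusted p = 7.04e-07). Btg2, an antiproliferative gene, rose by 1.78, Ier3 by 1.26, Fosl2 by 0.86, Jund by 0.71 and Zfp36, which destabilises cytokine mRNAs, by 0.59. Fos (-0.09), Egr1 (-0.39) and Atf3 (-0.01) were not called. In the MAPK feedback list of 14, Dusp6, the ERK phosphatase, fell by 1.27 and Spred1 by 0.42, and Spry1 rose by 0.63. The 4 genes called lower were 2 to 3 with 1 array left out, down by over 1.5 times without control replicate 3 or any Dox array. Of 14 cytokine feedback and STAT genes, 5 rose, among them Osm, oncostatin M (1.21), Socs2 (0.90) and Stat3 (0.81), while Socs3 (-0.32) and Cish (0.06) were not called.

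Interferon response genes gave 6 rises and 2 falls among 20 tested, beside 9.57% higher and 10.1% lower among all genes. The 2 falls are at that background. Oas2, a sensor of double-stranded RNA, read 4.65, 4.09 and 3.85 in control and 5.84, 6.01 and 6.10 with Dox (change 1.79, SE 0.19, limma adjusted p = 0.000241). Gbp3 rose by 1.02 and Oas3 by 0.74. The standard interferon targets Isg15 (0.17), Ifit1 (0.27), Rsad2 (0.02) and Irf7 (0.28) were not called. Among 20 inflammatory genes, 4 rose, including Nfkbiz (0.76), the NF-kB inhibitor Nfkbia (0.74) and the receptor Tlr2 (0.54). Tnf (-0.78) and the chemokine genes Ccl5 (-0.84) and Ccl2 (-0.90) were among 6 that fell. With 1 array left out 3 to 6 fell, over 1.5 times fewer without Dox replicate 2 or 3.

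Growth genes fell by small amounts in large numbers. Of 26 ribosome biogenesis genes, many of them known Myc targets, 20 fell and 0 rose, against 10.1% and 9.57% of all genes. Their median change was -0.43 and their range was -0.67 to -0.20. With 1 array left out the count was 13 to 17, with 13 without control replicate 3, and only 4 fell by significantly more than 1.2-fold. Rrp12 (-0.67) and Nop16 (-0.65), which act in preribosome assembly, Nop2 (-0.63), an rRNA methyltransferase, and Cad (-0.63), the first enzyme of pyrimidine synthesis, fell most. Polr1b (-0.59) and Polr1a (-0.45), the large chains of RNA polymerase I, fell too. Npm1 (-0.20) and Ncl (-0.25), abundant nucleolar proteins, were not called. In the Myc network of 11 genes, Myc fell and the antagonists Mxd4 (0.42) and Mxi1 (0.38) and the partner Mlx (0.36) were called higher, though 0 to 2 of the 3 were called with 1 array left out (lower by over 1.5 times for every array but control replicate 3).

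Cell cycle genes were called in some lists and not in others. Of 26 DNA replication genes, 7 fell and 0 rose, with a median of -0.26. Rfc5 (-0.55), Mcm5 (-0.50), Mcm3 (-0.47), Cdt1 (-0.43) and Prim1 (-0.43), of the clamp loader, the helicase, origin licensing and the primase, were called whichever array was left out, while Pcna (-0.06) and Tyms (-0.08) were not called. No DNA replication gene fell by significantly more than 1.2-fold. With limma's trend and robust options 16 replication genes fell. Of 23 mitosis genes, limma called 0, with changes of -0.30 to 0.20. At an unadjusted p of 0.05, 4 mitosis genes were lower and 1 higher, and limma's trend and robust options called 3 and 1. The markers of dividing cells Mki67 (0.05), Top2a (0.07) and Cdk1 (-0.05) were not called. In the G1 list of 16, 7 fell and 3 rose. Ccnd1, cyclin D1, read 5.26, 4.87 and 5.27 in control and 3.56, 3.79 and 3.77 with Dox (change -1.43, SE 0.13, limma adjusted p = 0.000105). Ccnd2 fell by 0.70, while Ccnd3 (0.48), Rb1 (0.95), the brake on E2F, and E2f2 (0.93) rose. The 7 falls were 4 to 6 with 1 array left out, and over 1.5 times fewer without control replicate 1 or Dox replicate 1 or 3. The CDK inhibitors Cdkn1b (0.49) and Cdkn2d (0.41) were called higher out of 7, in 0 to 2 of the list with 1 array left out (fewer for every array but Dox replicate 2), and Cdkn1a changed by 0.29 without a call.

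Of 13 DNA repair genes, 6 fell and 0 rose, but 2 to 5 with 1 array left out, over 1.5 times fewer for every array but control replicate 1. Exo1, an exonuclease (-0.73), and Parp1 (-0.48) were called in all of these fits. Of 19 p53 targets, 5 rose and 3 fell. Perp, Btg2 and Plk2 (1.72) rose, while the core targets Cdkn1a, Mdm2 (-0.13) and Ccng1 (-0.02) were not called. With 1 array left out the 3 falls were 1 to 2, over 1.5 times fewer without control replicate 1 or Dox replicate 2 or 3. Of 12 pro-apoptotic genes limma called 0, with changes between -0.30 for Bcl2l11 and 0.35 for Bbc3, which encode the BH3-only proteins BIM and PUMA. At an unadjusted p of 0.05, 2 were higher and 0 lower, and with the trend and robust options 0 and 0. Bcl2, the survival gene, read 7.95, 8.12 and 8.12 in control and 6.80, 6.71 and 6.84 with Dox (change -1.28, SE 0.09, limma adjusted p = 2.42e-05), with wide separation. Birc3 (0.48), Birc2 (0.42) and Mcl1 (0.33) were called higher, and 1 to 2 of these with 1 array left out, fewer by over 1.5 times without control replicate 3 or Dox replicate 2 or 3.

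Metabolic lists held a few large members in otherwise quiet sets. Of 13 lipid handling genes, Cd36, Abca1, the cholesterol exporter (3.09), and Scd1, a fatty acid desaturase (at least 0.81), rose. Lpl (-0.72) and Msr1 (a fall of at least 0.40) were called lower, and 0 to 2 of this list were with 1 array left out (0 or 1 without control replicate 1 or 3 or Dox replicate 1 or 3). Of 12 cholesterol synthesis genes, Cyp51 (1.0), Fdft1 (0.67) and, except without control replicate 3, Hmgcs1 (0.43) rose, Fasn fell by 0.46, and Dhcr7 (-0.44) was called lower but in only 1 of the fits without an array. Of 10 prostaglandin and steroid genes, Akr1c18, Tbxas1, thromboxane synthase (0.60), and Alox5ap (0.44) rose. Hpgds, which makes prostaglandin D2 in mast cells, fell by 1.33, and Pla2g4a fell by 0.38 except without control replicate 1 or Dox replicate 3. Of 8 genes in the surface enzyme list, Nt5e and Anpep, aminopeptidase N (2.29), rose. Cd109, the membrane protein that binds TGF-beta, was in this list and rose too. Sat1, the enzyme that starts polyamine breakdown, read 5.40, 5.23 and 5.57 in control and 7.24, 7.60 and 7.38 with Dox (change 2.01, SE 0.12, limma adjusted p = 1.13e-05). The polyamine synthesis genes Srm (-0.56) and Odc1 (-0.49) fell, but Odc1 was not called without control replicate 2 or 3 or Dox replicate 3.

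Of 15 glycolysis and hypoxia genes, 6 were called lower, but 2 to 3 whichever array was left out. Egln3, an oxygen-sensing hydroxylase (-1.0), and Pfkl (-0.61) held in all of these fits, and the 1 gene called higher, Slc16a3 (0.31), in none. Of 13 amino acid transporter genes, 4 fell, led by Slc7a6 (-0.77) and Slc1a4 (-0.64), and Slc7a7 rose by 0.80. Slc7a3 (0.42), the other call, was lost without control replicate 2 or 3 or Dox replicate 1 or 2. Of 21 unfolded protein and integrated stress genes, 6 fell and 3 rose. Sdf2l1, an endoplasmic reticulum chaperone cofactor (-0.65), fell and Trib3 (0.77) rose in every fit without an array, while Atf4 (0.11) and Ddit3 (0.14) were not called. The falls numbered 3 to 5, over 1.5 times fewer without control replicate 2 or Dox replicate 2 or 3, and the rises 1 to 2, fewest without control replicate 3.

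Nqo1, a quinone reductase and Nrf2 target, read 5.33, 5.33 and 5.46 in control and 7.65, 7.53 and 7.44 with Dox (change 2.17, SE 0.09, limma adjusted p = 1.09e-06). It was the 1 rise among 12 oxidative stress genes, a share near the 9.57% of all genes. Hmox1 (-0.12), Srxn1 (0.13) and Gclm (-0.09) were not called. The 3 genes called lower, Slc7a11 (-0.51), Gclc (-0.32) and Gsr (-0.31), were 0 to 1 whichever of the 6 arrays was left out. Of 9 heat shock genes, Hsph1 (-0.87), Hspd1 (-0.54) and Hspe1 (-0.37) fell, the last of these called in 2 of the 6 fits without an array. Of 15 lysosome and autophagy genes, Map1lc3b (0.77), Ctsl (0.61) and Ulk1 (0.52) rose, and Hexa (-0.33) was called lower in 1 of the 6 fits without an array.

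Among 8 DNA methylation genes 4 fell and 1 rose. Dnmt3b, a de novo methyltransferase, read 6.18, 6.45 and 6.63 in control and 5.50, 5.31 and 5.53 with Dox (change -0.98, SE 0.13, limma adjusted p = 0.000944). Tet2, which oxidises methylcytosine and is often mutated in myeloid disease, read 6.33, 6.46 and 6.39 in control and 7.34, 7.36 and 7.34 with Dox (change 0.95, SE 0.08, limma adjusted p = 7.79e-05). The related Tet1 (-0.59) and Tet3 (-0.43) fell, as did the maintenance enzyme Dnmt1 (-0.40). Tet3 was lost without control replicate 1 or 2 or Dox replicate 1 or 2. Of 21 chromatin regulators, 2 were called higher and 1 lower, no more than the 9.57% and 10.1% of all genes. Kdm1a, a histone demethylase, fell by 0.43 and Hdac9 rose by 0.50. Ring1 (0.33) was called higher but in 1 of the 6 fits without an array, and the Polycomb genes Ezh2 (-0.09), Suz12 (-0.16) and Eed (0.07) were not called.

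**Figure D5:**
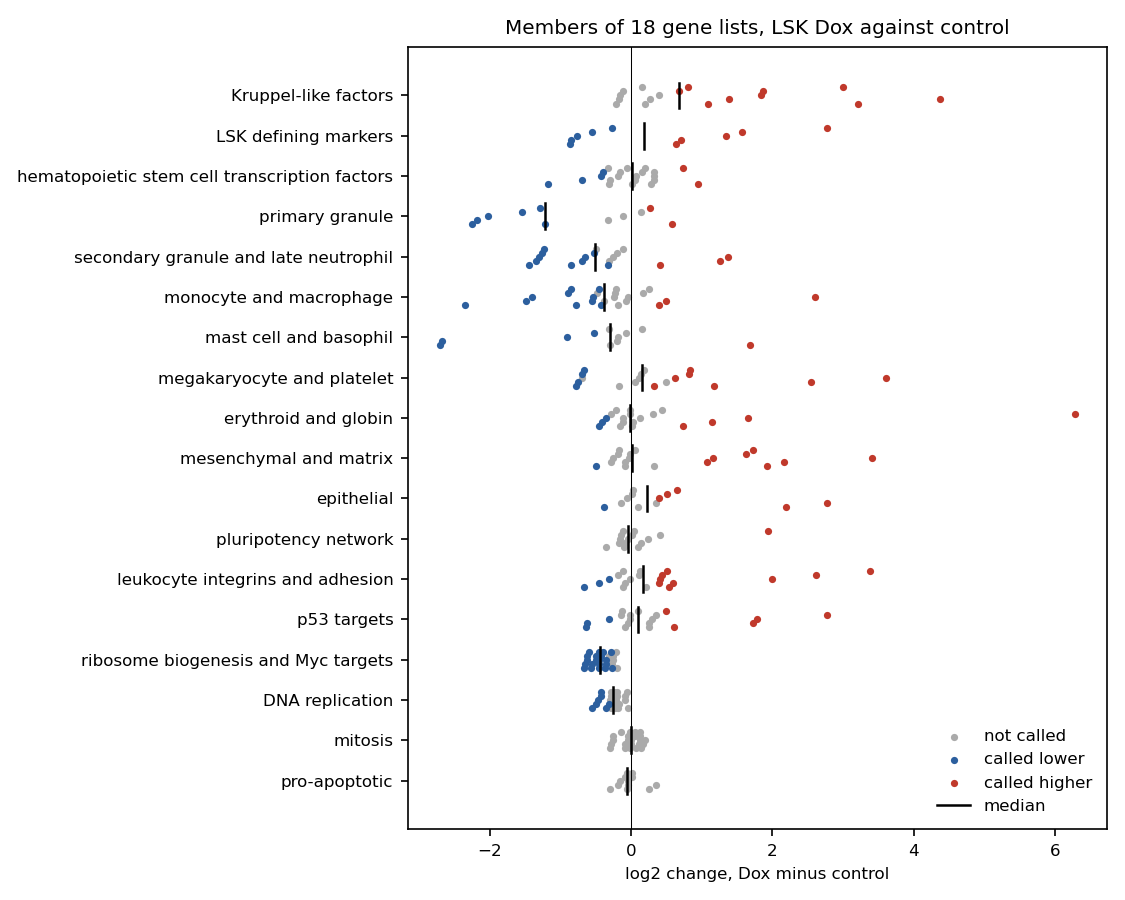
Log2 change with Dox (horizontal axis, log2 units) of each tested member of 18 of the gene lists; each point is a gene, red called higher, blue called lower and grey not called, points are spread vertically only to be seen, and black bars are list medians. The ribosome biogenesis genes lie together between -0.67 and -0.20, the primary granule median lies at -1.22, and the Krüppel-like factors extend to 4.38.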

How the data were processed

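Per the labels' protocols, total RNA from sorted mouse LSK cells received a biotin label through a whole-transcript GeneChip kit. It was then measured on 1-colour arrays. The authors deposited log2 expression values of probe sets made with RMA, which corrects background, normalizes between arrays and summarises probes (per the submitters' processing notes, which state no version). No further scaling was applied in the main analysis. Scanner intensities were not used here.

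Of 41345 probe sets, the platform annotation named 1 gene for 23521, several for 1814 and did not list 16010. Only probe sets of 1 gene were named, and of these the one with the highest mean over the 6 arrays was kept, which gave 22180 genes. Genes above the 40th percentile of an array on at least 3 arrays entered a limma fit (version 3.58.1, under R 4.3.3; lmFit and eBayes on group means, 4 residual and 4.64 prior degrees of freedom, median standard error 0.107), with Benjamini-Hochberg adjustment over the 14886 tested. The script was also tested on simulated data. A rise or fall from a group mean below the filter level is given as at least the change with values under that level set to it. The number of arrays limits the precision.

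Named are the 4 factors, the 20 largest rises and falls, and the members of gene lists with the smallest p; further list members were picked once their values were known. The comparison and the lists were chosen with earlier results of these data known, and no list was tested as a set. Alternatives were a replicate block, each array left out, 2 other scalings, 3 other treatments of dim probe sets, the mean of a gene's probe sets, 2 other variance models and a 1.2-fold minimum. The 250 bases before each RefSeq start came from a table of GRCm38.p6 promoters, which matched 11603 of the tested genes by symbol.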

Additional observations from a re-analysis of the deposited data

How the results depend on the processing

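The 2927 calls, 1425 higher and 1502 lower, were 2108 to 2261 in total with 1 array left out, 1157 to 1248 higher and 907 to 1067 lower. Those of at least 2-fold were 471, and 479 to 489 with 1 array left out. A test for more than 1.2-fold (limma's treat) called 985 genes, 722 higher and 263 lower. Most of the small falls were thus not significantly past that limit, whatever their estimated size. Other scalings, filters, probe set rules and variance models gave 2648 to 3756 calls and 458 to 471 of at least 2-fold. None of the changes of the named genes that were called turned direction under an alternative. Of 242 named genes called, 196 were called whichever array was left out, and of the 100 changed by at least 2-fold, 99 were. No pairing by replicate number was seen: the deviations of same-numbered arrays from their group means correlated at -0.016, -0.026 and -0.053. Those of differently numbered arrays ran from -0.018 to 0.044. Such small values cannot settle whether arrays of the 2 groups shared mice or cultures. With the replicate block 2344 genes were called, 471 of at least 2-fold. Precision was set by 3 arrays a group, with a median standard error of 0.107, so small changes were near the limit of detection. Probe sets of near-identical family members may share signal, and a further probe set gave the opposite sign for Mecom and Hspa8 among 16 named genes with several. Sizes also differed between probe sets of the same sign. Smaller rises were read for Ccdc80 (2.72), Rb1 (0.39), Cd9 (0.25), Gata3 (0.1) and Mxi1 (0.09), among others. Larger ones were read for Jund (0.8), Cd24a (0.76) and Mcl1 (0.65).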

Other observations

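Several gene families, mostly outside the lists, held many of the large rises; they were picked after their values were seen, so their counts are a description, beside 9.57% of all genes called higher. Of 20 Ms4a genes measured, which encode small tetraspan membrane proteins of immune cells, 10 passed the filter, 6 were higher and 2 lower. Ms4a6d read 3.26, 3.45 and 3.23 in control and 7.11, 7.13 and 6.99 with Dox (change 3.76, SE 0.10, limma adjusted p = 7.19e-08). Ms4a6b rose by 2.67, Ms4a6c by 2.60, Ms4a4c by at least 2.83 and Ms4a4b by at least 1.96, whereas Ms4a3 and Ms4a2, of granulocyte progenitors and mast cells, fell. All 4 Cd200r genes, receptors and receptor-like relatives for the ligand CD200, were higher. The control means of Cd200r2 (2.01), Cd200r3 (2.18) and Cd200r4 (2.23) lay below the filter level. So did those of Ms4a4a (2.09), Ms4a4b (1.58) and Ms4a4c (2.31). Family members that passed the filter through the Dox arrays alone had a rise built into their selection, which can raise these counts. Cd200r1 read 3.13, 2.82 and 3.77 in control and 6.51, 6.71 and 6.62 with Dox (change 3.38, SE 0.21, limma adjusted p = 1.1e-05). Cd200r2 was scattered with Dox, at 2.93, 4.49 and 3.98.

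Annexins, calcium-dependent membrane-binding proteins, were higher in 7 of 9 tested, led by Anxa8 (at least 3.52) and Anxa2 (2.47), and Anxa3 fell by 0.91. S100a10, which pairs with annexin 2, rose by 1.81, and S100a11 by 0.91. Of 7 Gimap genes tested, GTPases of lymphocytes, 6 were higher, 4 to 6 with 1 array left out, led by Gimap3 (2.21) and Gimap4 (1.12). Cd59a, which blocks the complement pore, read 5.12, 4.89 and 5.23 in control and 8.33, 8.11 and 7.94 with Dox (change 3.05, SE 0.13, limma adjusted p = 9.5e-07), a rise beside that of Cd55.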
